A study of Homo sapiens with 6 samples.

Results

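The genes described here are the SR and hnRNP splicing factors, the core SF3A and SF3B subunits, and the CLK and SRPK kinases that act on SR proteins. They were chosen by name: SRSF, HNRNP, TRA2, SF3A, SF3B, CLK1 to CLK4 and SRPK symbols were kept, and 33 pseudogene names were dropped. This left 50 genes of the 26025 in the deposited table, namely 14 SR and TRA2 genes, 21 hnRNP genes, 9 SF3A and SF3B genes and 6 kinases. RNA was sequenced from NCI-H1299, an established human non-small cell lung carcinoma line. All cells were first held in serum-free medium for 8 to 12 h and then kept for 48 h in medium with 2% serum. The NE group (3 libraries) received 10 µM norepinephrine and the Ctrl group (3 libraries) received vehicle, which is called DMSO in the sample titles and PBS in the treatment protocol. A single line is a limited model, and nothing in the labels ties the libraries to separate cultures, so the p-values measure only the spread between these libraries, which may be technical. VIM, KRT8 and KRT18, markers of this line, were present at 45300 to 78252, 5230 to 14180 and 6680 to 24941 normalized counts (reads per gene divided by a size factor for each library).

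Splicing joins exons at boundaries that are chosen anew in each transcript. SR proteins and TRA2 proteins bind short elements, mostly in exons, and help the spliceosome to use a nearby site, whereas many hnRNP proteins bind elements that hide a site. SF3A and SF3B are parts of the U2 particle, which marks the branch point ahead of the 3′ splice site. SRPK kinases phosphorylate the serine-arginine tails of SR proteins for entry into the nucleus, and CLK kinases add further phosphates there. Many SR and hnRNP genes limit their own level through exons that send the transcript to nonsense-mediated decay, so a gene-level count mixes productive and decayed forms. Norepinephrine acts on adrenergic receptors, and the β2 receptor raises cAMP, which activates the transcription factor CREB. CREB binds the element TGACGTCA or its core TGACG, and the circadian factor CLOCK, with its partner, binds the E-box CACGTG.

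The promoters of the members with the largest rises (CLK4 and SF3B1) and the largest falls (HNRNPAB and SF3A2) are shown so that these elements can be read in place. Each window runs from 250 bases before to 50 bases after a RefSeq start, on GRCh38.p14, and is printed 5′ to 3′ along the gene. Capitals mark TGACG or CACGTG on either strand, so that CGTCA is TGACG on the other strand. The windows are chr5:178627001-178627300 (minus strand) for CLK4, chr2:197434979-197435278 (minus strand) for SF3B1, chr5:178204283-178204582 (plus strand) for HNRNPAB and chr19:2236574-2236873 (plus strand) for SF3A2. SF3B1 has 2 RefSeq windows, and the one nearest the GENCODE start is given. On hg38, GENCODE v44 places the whole genes at chr5:178602664-178630615 (CLK4, ENSG00000113240), chr2:197388515-197435079 (SF3B1, ENSG00000115524), chr5:178204533-178211163 (HNRNPAB, ENSG00000197451) and chr19:2236824-2248655 (SF3A2, ENSG00000104897).
CLK4: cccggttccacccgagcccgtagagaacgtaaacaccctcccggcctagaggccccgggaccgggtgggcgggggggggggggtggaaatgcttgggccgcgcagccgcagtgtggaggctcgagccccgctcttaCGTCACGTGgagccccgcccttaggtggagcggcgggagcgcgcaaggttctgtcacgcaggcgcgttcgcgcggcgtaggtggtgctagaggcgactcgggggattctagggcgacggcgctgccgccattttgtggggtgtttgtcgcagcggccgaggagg
SF3B1: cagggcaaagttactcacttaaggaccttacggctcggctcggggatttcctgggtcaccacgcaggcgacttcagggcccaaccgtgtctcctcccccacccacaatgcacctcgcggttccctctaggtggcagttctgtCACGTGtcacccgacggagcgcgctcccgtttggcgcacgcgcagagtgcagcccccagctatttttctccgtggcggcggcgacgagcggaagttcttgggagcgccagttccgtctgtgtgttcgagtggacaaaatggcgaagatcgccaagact
HNRNPAB: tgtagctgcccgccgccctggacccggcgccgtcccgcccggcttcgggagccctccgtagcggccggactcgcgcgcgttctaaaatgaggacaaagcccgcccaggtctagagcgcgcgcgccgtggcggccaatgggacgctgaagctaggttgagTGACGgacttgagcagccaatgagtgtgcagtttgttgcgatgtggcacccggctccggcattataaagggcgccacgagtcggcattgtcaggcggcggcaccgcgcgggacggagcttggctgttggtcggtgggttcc
SF3A2: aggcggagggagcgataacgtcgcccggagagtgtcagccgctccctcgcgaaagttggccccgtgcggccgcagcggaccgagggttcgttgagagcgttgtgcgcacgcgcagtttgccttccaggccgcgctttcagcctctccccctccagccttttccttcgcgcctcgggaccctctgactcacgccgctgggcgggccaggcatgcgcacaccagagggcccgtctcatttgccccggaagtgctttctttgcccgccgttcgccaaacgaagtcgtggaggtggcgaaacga
In CLK4 the core TGACG (read as CGTCA) and the E-box overlap in the run CGTCACGTG. SF3B1 has an E-box, HNRNPAB has the core TGACG, and SF3A2 has neither. The whole element TGACGTCA was in 0 of the 46 members with a window, against 1.85% of all 35116 RefSeq windows. The core TGACG was in 24 of 46 (52.2%, against 24.6% of all windows), and the E-box was in 8 of 46 (17.4%, against 7.26%). Base composition was not matched in these shares. Each member was counted by the window nearest its GENCODE start, whereas all windows include every RefSeq window of a gene, so the sets are unlike. Among members called higher, 6 of 11 windows held TGACG and 3 the E-box. Among members called lower, 6 of 13 held TGACG and 2 the E-box, and among those not called, 12 of 22 and 3. A match of letters is a description and shows no binding.

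Values listed below for a gene are its normalized counts in libraries 1, 2 and 3 of each group, in that order. The libraries held 17373654 to 17979206 reads on genes in Ctrl and 16852751 to 17325039 in NE. Ctrl 3 stood apart from the other Ctrl libraries. It had 7305 genes at 0, against 4829 and 4833 in Ctrl 1 and Ctrl 2, and it lay on the NE side of the mean of Ctrl 1 and Ctrl 2 in 39 of the 50 members (78%) and in 72.1% of all genes tested. Values without Ctrl 3 are therefore given beside the results that rest on it. Markers of other cell types (5 of 7 in the table; PTPRC and SFTPC are not listed) summed to 20.6 to 41.9 normalized counts in Ctrl and 38.7 to 63.2 in NE, with ALB and COL3A1 at 0 in every Ctrl library, and their part in the results was not tested. In bulk RNA, fewer cells of a kind and less RNA per cell cannot be told apart.

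The NE libraries were set against the Ctrl libraries to ask which of these splicing factors differed in RNA level. With NE, 12 of the 50 members were higher, 15 were lower and 23 were not called. A gene was called at an adjusted p under 0.05 from limma, fitted to log2(normalized count + 1) over the 15013 genes whose mean reached 10 normalized counts, with p adjusted by Benjamini-Hochberg over all of them. All 50 members passed that filter. Scaled by library totals, a choice made after seeing the data, 13 members were higher and 10 lower, and after quantile normalization 15 and 9. Library totals gave 30.5% of all genes higher and 20% lower, and quantile normalization called 3774 of the 15013 genes higher and 3795 lower. Over all tested genes, 24.6% were called higher and 25.5% lower, so the members' 24% and 30% are near the background, and the counts say nothing particular about splicing factors. Only CLK4, which rose, and HNRNPAB, which fell, also passed an absolute log2 difference of 1, as did 14.0% of all tested genes. The NE libraries were all above the Ctrl libraries in 13 members and all below in 17, against 29.7% and 28.9% of tested genes. The median log2 difference was −0.065 over the members and 0.0097 over all tested genes. The differences ranged from −1.15 to 1.04, and those of the 23 uncalled members ranged from −0.33 to 0.51 (adjusted p from 0.0725 to 0.966).

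**Figure D1:**
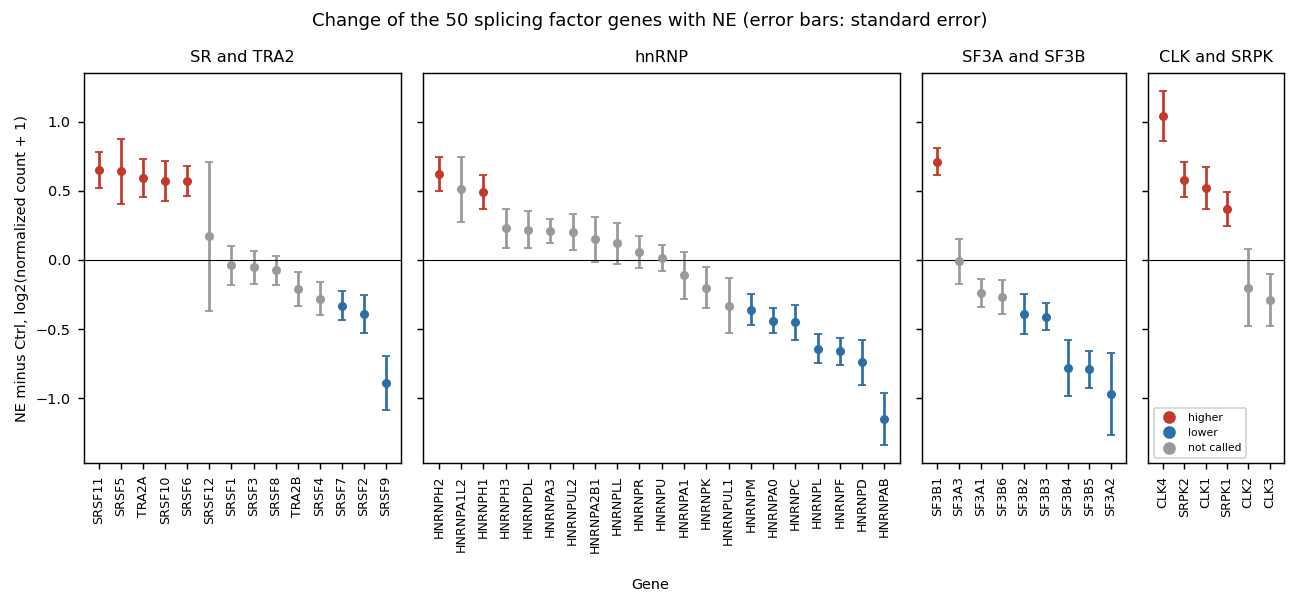
Difference between NE and Ctrl on the log2(normalized count + 1) scale (vertical axis) for the 50 genes (horizontal axis), in 4 panels by role, with bars for the standard error from limma (3 libraries per group). Red points are the 12 genes called higher, blue the 15 called lower and grey the 23 not called. In the panels, 4 of 6 kinases are red and 5 of 9 SF3A and SF3B genes are blue. Over all tested genes 24.6% were called higher and 25.5% lower.

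The members differed in base composition, and the differences with NE followed it. Across the 50 members the Spearman correlation of the log2 difference with the GC content of the merged exons was −0.549, and across 14955 tested genes it was −0.644. Genes are not independent replicates, and all of these points come from the same 6 libraries. Members called higher had an exon GC of 37% to 45.5% (median 40.8%), and members called lower had 38.6% to 64.6% (median 50.5%). Of the 17 members with the most GC (45.5% to 64.6%), 0 were called higher and 11 lower. Of the 17 with the least (35.3% to 40.1%), 5 were higher and 2 lower, and of the 16 between them 7 were higher and 2 lower. Over all tested genes, of any GC, 24.6% were higher and 25.5% lower. Ctrl 3 differed from Ctrl 1 and Ctrl 2 with the same sign, with a Spearman correlation of −0.41 over the members and −0.511 over all tested genes. Without Ctrl 3 the correlation of the NE difference with GC over the members was −0.582.

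A second fit removed from each library a smooth trend of the log2 values on exon GC. In that fit 0 of the 12 risen members were called, 10 of the 15 fallen members were still lower, and 11 members that had not been called became lower. HNRNPUL2, at a GC-corrected difference of 0.43, was the 1 member called higher. Without correction its groups overlapped (adjusted p = 0.224), and 44.3% of its exon bases are shared with the gene HNRNPUL2-BSCL2 on the same strand. Over all genes 13.0% were called higher and 19.0% lower after this correction, against 1 (2%) and 21 (42%) of the 50 members. The correction takes away any GC-related difference, whatever its source. Without Ctrl 3, all 12 higher and all 15 lower calls remained, and 2 more members were higher and 9 more lower; over all genes 31.9% were then higher and 32.5% lower. Of the 27 calls, 10 were made in all of these fits (with all libraries, after GC correction, and without Ctrl 3), all of them lower: HNRNPA0, HNRNPAB, HNRNPC, HNRNPD, HNRNPF, SF3B3, SF3B5, SRSF2, SRSF7 and SRSF9. No member was called higher in all of them. The share of all tested genes called in all of these fits was not taken, so these counts say nothing particular about splicing factors. The calls of HNRNPC, SRSF2 and SRSF7 were also lost on leaving out some other single libraries.

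**Figure D2:**
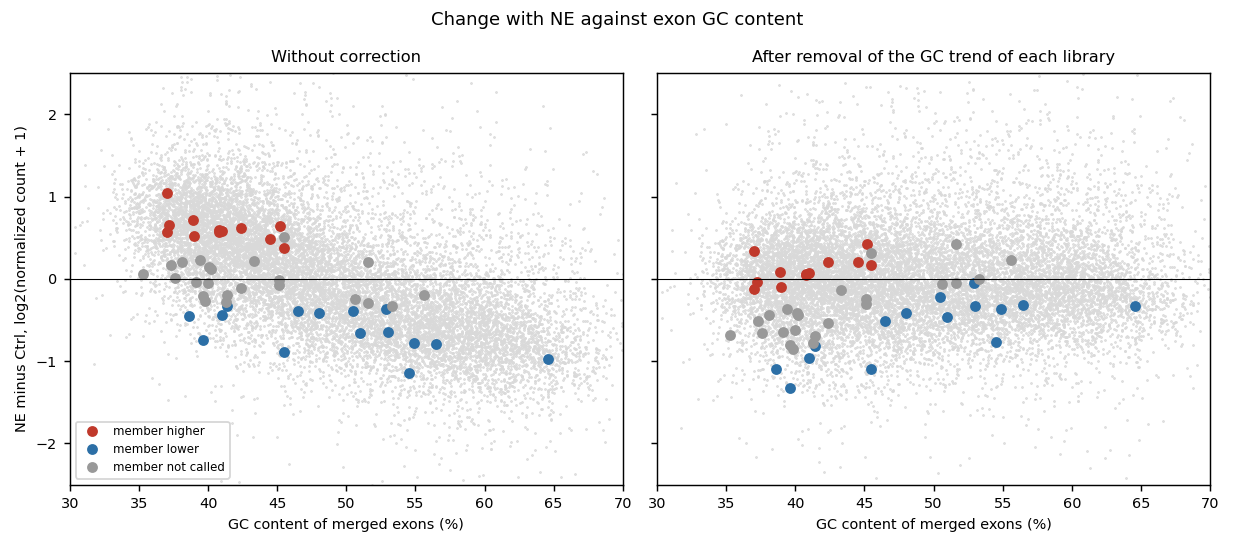
Log2 difference between NE and Ctrl (vertical axis) against exon GC content in percent (horizontal axis), before (left) and after (right) removal of each library's GC trend; small grey points are all tested genes within the axes, and large points are members coloured by their call without correction. On the left the 12 members called higher lie between 37% and 45.5% GC; on the right they lie near or below 0.42.

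Of the 6 kinases, 4 were called higher and 0 lower, with a median log2 difference of 0.45, against 24.6% and 25.5% of all tested genes. Without Ctrl 3, 4 were higher and 2 lower, against 31.9% and 32.5% of all genes. Differences between the roles were not tested. CLK4, a CLK kinase of low abundance, read 98.4, 142 and 133 in Ctrl and 255, 231 and 276 in NE. The groups did not overlap, with a 2.04-fold difference in means (log2 difference 1.04 ± 0.181 SE, adjusted p = 0.00163). Its paralog CLK1, which is known to phosphorylate SR proteins in nuclear speckles, read 527, 600.4 and 628 in Ctrl and 691, 869 and 982 in NE. These groups did not overlap either (log2 difference 0.52 ± 0.151 SE, adjusted p = 0.0174), but the call was lost on leaving out Ctrl 1, NE 2 or NE 3 in turn. SRPK2 read 579, 552 and 719 in Ctrl and 916, 937 and 904 in NE, with no overlap and a narrow NE range (log2 difference 0.58 ± 0.128 SE, adjusted p = 0.00486). SRPK1 read 1969, 2054 and 2479 in Ctrl and 3096, 2696 and 2581 in NE (log2 difference 0.37 ± 0.123 SE, adjusted p = 0.033). It did not overlap, but the call was lost on leaving out Ctrl 1, Ctrl 2, NE 1 or NE 2, and 28.1% of its exon bases are shared with LHFPL5 on the opposite strand.

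The other CLK genes were not called. CLK2 read 522, 476 and 259 in Ctrl and 275, 333 and 463 in NE, and CLK3 read 757, 783 and 479 in Ctrl and 486, 566 and 562 in NE. In both, Ctrl 1 and Ctrl 2 were above every NE library and Ctrl 3 was below the lowest of them. The log2 differences were −0.2 ± 0.278 (adjusted p = 0.573) for CLK2 and −0.29 ± 0.189 (adjusted p = 0.225) for CLK3. Without Ctrl 3 both were called lower, at −0.51 (adjusted p = 0.0211) and −0.52 (adjusted p = 0.000758). CLK4 and CLK1 have 37% and 39% exon GC, and CLK2 and CLK3 have 55.6% and 51.6%. After GC correction 0 of 6 kinases were called: CLK4 was at 0.34 (adjusted p = 0.158), SRPK1 at 0.17, SRPK2 at 0.071, CLK1 at −0.095, CLK2 at 0.23 and CLK3 at −0.055. Over all genes 13.0% were called higher and 19.0% lower after this correction. As a group the kinases took 0.0245%, 0.0253% and 0.0267% of the reads on genes in Ctrl and 0.0334%, 0.0345% and 0.0367% in NE. The lowest NE library was above the highest Ctrl library, as in 29.7% of single tested genes by normalized counts. This sum holds the 4 kinases called higher. Read shares divide by all reads on genes, a scale on which the log2 difference of the median gene is 0.13 higher.

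**Figure D3:**
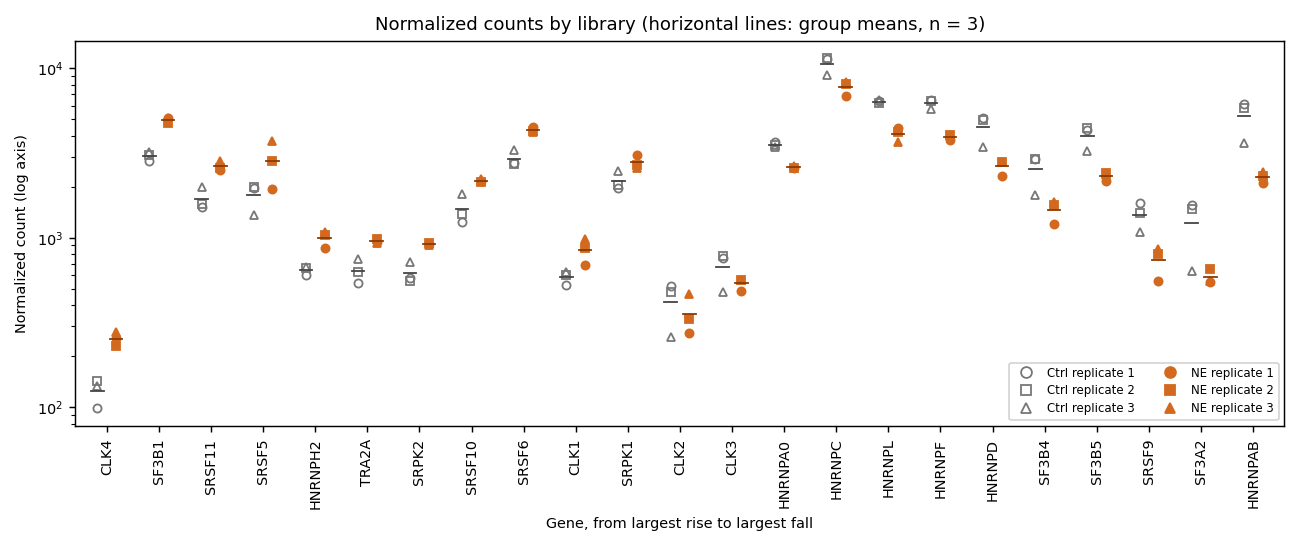
Normalized counts on a log axis (vertical) in each of the 6 libraries for the 23 members given one by one (horizontal axis, from the largest rise to the largest fall); open grey symbols are Ctrl, filled orange symbols are NE, the shape gives the replicate number and the lines are group means (n = 3). SF3A2 shows Ctrl 3 at 638, next to the NE libraries and away from the other Ctrl libraries at 1561 and 1473.

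Of the 14 SR and TRA2 genes, 5 rose, 3 fell and 6 were not called, against 24.6% higher and 25.5% lower over all tested genes. SRSF11, an SR protein also known as p54, read 1525, 1571 and 1996 in Ctrl and 2494, 2580.1 and 2851 in NE, with no overlap (log2 difference 0.65 ± 0.127 SE, adjusted p = 0.00288). SRSF10, which is known as a splicing repressor in its dephosphorylated form, read 1233, 1383 and 1809.9 in Ctrl and 2175, 2118 and 2211 in NE (log2 difference 0.57 ± 0.142 SE, adjusted p = 0.00873). SRSF6 read 2764, 2708 and 3297 in Ctrl and 4514, 4259 and 4217 in NE (log2 difference 0.57 ± 0.108 SE, adjusted p = 0.00231). TRA2A, a binder of GA-rich exonic enhancers, read 539, 629 and 753 in Ctrl and 949, 989 and 926 in NE (log2 difference 0.59 ± 0.138 SE, adjusted p = 0.00661). In these 4 genes the NE libraries lay above every Ctrl library, Ctrl 3 was the highest Ctrl library, and the call held on leaving out any 1 library. SRSF5 read 1976, 2003 and 1356 in Ctrl and 1944, 2831 and 3699.9 in NE. Its groups overlapped, since NE 1 was below Ctrl 1 and Ctrl 2, and its call (log2 difference 0.64 ± 0.233 SE, adjusted p = 0.0449) was lost without NE 2 or without NE 3.

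After GC correction these 5 rises were at −0.042 for SRSF11, −0.12 for SRSF10, 0.048 for SRSF6, 0.062 for TRA2A and 0.42 for SRSF5, and 0 of them were called (adjusted p from 0.175 to 0.767). SRSF11 and SRSF10 thus turned in sign. The correction called 8 of the 14 SR and TRA2 genes lower, with a median of −0.51, against 3 lower and a median of −0.047 without it. Over all tested genes 19.0% were called lower with the correction and 25.5% without it.

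SRSF9 had the largest fall among SR genes, with 1599, 1392 and 1087 in Ctrl and 554, 802 and 855 in NE. The groups did not overlap, the NE mean was 0.542 of the Ctrl mean, and the difference was −0.89 ± 0.194 on the log2 scale (adjusted p = 0.00467). It was −1.09 after GC correction (adjusted p = 0.00164) and −1.04 without Ctrl 3. GATC on the opposite strand covers 43.6% of its exon bases, and the counting's strand setting is not given in the sources used here, so reads of the overlap cannot be assigned to either gene. SRSF2 and SRSF7 were lower by smaller amounts, −0.39 (adjusted p = 0.0407) and −0.33 (adjusted p = 0.0239). The call of SRSF2 was lost without Ctrl 2 or without any 1 NE library, and that of SRSF7 without Ctrl 1, Ctrl 2, NE 1 or NE 2. MFSD11 overlaps 27.7% of the exon bases of SRSF2. The uncalled genes SRSF1, SRSF3, SRSF4, SRSF8, SRSF12 and TRA2B ranged from −0.28 (SRSF4) to 0.17 (SRSF12, which was nearly silent at 7.75 to 30.6 normalized counts). The SR and TRA2 genes took 0.17%, 0.177% and 0.208% of reads in Ctrl and 0.189%, 0.209% and 0.227% in NE, with overlap.

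Of the 21 hnRNP genes, 2 rose, 7 fell and 12 were not called, against 24.6% higher and 25.5% lower over all tested genes. HNRNPH2, which binds runs of G, read 603, 659.5 and 671 in Ctrl and 875, 1031 and 1079 in NE, with no overlap (log2 difference 0.62 ± 0.122 SE, adjusted p = 0.00284). A readthrough transcript shares 15.8% of its exon bases. HNRNPH1, its close relative, was higher by 0.49 (adjusted p = 0.00987), a call that was lost without NE 2. After GC correction these were at 0.2 and 0.21 and were not called. The lower genes were led by HNRNPAB, a relative of HNRNPD that binds RNA and single-stranded DNA. It read 6176, 5860 and 3603 in Ctrl and 2098, 2307 and 2446 in NE. Every NE library was below every Ctrl library, although Ctrl 3 lay between Ctrl 1 and Ctrl 2 and the NE libraries (log2 difference −1.15 ± 0.19 SE, adjusted p = 0.0012). The difference was −1.4 without Ctrl 3 (adjusted p = 6.2e-08) and −0.77 after GC correction (adjusted p = 0.00147).

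HNRNPD, also called AUF1, binds AU-rich elements of short-lived mRNAs. It read 5057, 4931 and 3428 in Ctrl and 2306, 2809.7 and 2801 in NE, with Ctrl 3 again the lowest Ctrl library (log2 difference −0.74 ± 0.16 SE, adjusted p = 0.00444). Its exons are GC-poor (39.6%), so that the correction moved it further down, to −1.33 (adjusted p = 0.00106). HNRNPC, which binds tracts of U, is also GC-poor (38.6%) and read 11373, 11456 and 9067 in Ctrl and 6884, 8057 and 8319 in NE (log2 difference −0.45 ± 0.125 SE, adjusted p = 0.0147). It was at −1.09 after GC correction (adjusted p = 0.00134), but without correction its call was lost on leaving out Ctrl 1, Ctrl 2 or NE 1, and with quantile normalization (−0.12) or library totals (−0.32). HNRNPA0, a further binder of AU-rich elements, read 3666, 3534 and 3419 in Ctrl and 2570.2, 2578 and 2667 in NE, with all Ctrl libraries within a narrow range (log2 difference −0.44 ± 0.0911 SE, adjusted p = 0.00359). It was at −0.96 after correction (adjusted p = 0.000145).

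The third H-type gene, HNRNPF, moved against its relatives. It read 6493, 6402 and 5756 in Ctrl and 3779.7, 4028 and 4019 in NE, with no overlap (log2 difference −0.66 ± 0.0957 SE, adjusted p = 0.000693), and was at −0.46 after GC correction (adjusted p = 0.00183). HNRNPL, which binds CA repeats, read 6390.1, 6228 and 6457 in Ctrl and 4433, 4215 and 3648 in NE (log2 difference −0.64 ± 0.103 SE, adjusted p = 0.0011). It was at −0.33 after correction and no longer called (adjusted p = 0.0513). HNRNPM was lower by 0.36 on the log2 scale (−0.36, adjusted p = 0.0231), a call that was lost on leaving out Ctrl 1, Ctrl 2, NE 2 or NE 3. Among the 12 uncalled genes are the most abundant ones. HNRNPA1 read 26741, 26934 and 17003 in Ctrl and 20461, 22395 and 21244 in NE, and HNRNPUL1 read 21735, 21446 and 12324 in Ctrl and 13873, 14713 and 14221 in NE. In both, Ctrl 3 was the lowest of all 6 libraries and the other Ctrl libraries were above every NE library. Without Ctrl 3 they were called lower, at −0.33 (adjusted p = 0.00381) and −0.6 (adjusted p = 2.23e-05). The 14 HNRNPA1 pseudogenes of the table held 2.05% to 2.43% of the normalized count of HNRNPA1, and reads could be split between them. NFE2L2 on the opposite strand covers 53.6% of the exon bases of HNRNPA3, and HNRNPA1L2 lies wholly within exons of a long noncoding RNA on the same strand, so these values are uncertain. As a group the hnRNP genes took 0.789%, 0.785% and 0.613% of reads in Ctrl and 0.634%, 0.718% and 0.729% in NE, with Ctrl 3 the lowest.

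Of the 9 SF3A and SF3B genes, 1 rose and 5 fell, against 24.6% higher and 25.5% lower over all tested genes. SF3B1, the large subunit that holds the branch point helix, read 2842, 3093 and 3183 in Ctrl and 5055, 4728 and 5094 in NE. The NE libraries all lay above the Ctrl libraries, with a 1.63-fold difference in means (log2 difference 0.71 ± 0.0957 SE, adjusted p = 0.000489), and the call held on leaving out any 1 library. The value was 0.082 after GC correction (adjusted p = 0.529). The 5 subunits that fell were SF3A2, SF3B2, SF3B3, SF3B4 and SF3B5. SF3A2, which contacts the pre-mRNA near the branch point, read 1561, 1473 and 638 in Ctrl and 545, 653 and 552 in NE. Ctrl 3 fell below the NE 2 library, so the groups overlapped, and the call (log2 difference −0.97 ± 0.297 SE, adjusted p = 0.023) was lost on leaving out Ctrl 1, Ctrl 2, NE 1 or NE 3. Without Ctrl 3 it was −1.38 (adjusted p = 2.75e-07), and after GC correction −0.33 (adjusted p = 0.202). SF3A2 is the most GC-rich member, at 64.6%.

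SF3B4, an RNA-binding subunit, read 2923, 2933 and 1783 in Ctrl and 1205, 1563 and 1614 in NE (log2 difference −0.78 ± 0.202 SE, adjusted p = 0.0109). Its call was lost without NE 1 and after GC correction (−0.37, adjusted p = 0.0628). SF3B5, a small subunit encoded in a gene of few bases, read 4322, 4453 and 3247 in Ctrl and 2159, 2421 and 2333 in NE, with no overlap (log2 difference −0.79 ± 0.134 SE, adjusted p = 0.00144). It was at −0.32 after correction (adjusted p = 0.0159). SF3B3 and SF3B2 were lower by smaller amounts, −0.41 (adjusted p = 0.00627) and −0.39 (adjusted p = 0.0436), and the call of SF3B2 held on leaving out Ctrl 3 and was lost on leaving out any other library. SF3A1, SF3A3 and SF3B6 were not called, at −0.24, −0.01 and −0.27. Without Ctrl 3 all of these 8 genes other than SF3B1 were called lower, as were 32.5% of all genes. The subunits are partners in 1 particle, yet their RNA differences spanned −0.97 to 0.71.

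Related members share sequence and role, and the ratio of their reads within a library does not depend on its size factor. Ratios were taken for 15 pairs, which were chosen after the values were seen, so no test is given; they are not corrected for length and compare only the same pair between groups. In 8 of 15 pairs the NE ratios all lay above the Ctrl ratios, and in the other 7 the groups overlapped. Among single tested genes, 29.7% lay all above and 28.9% all below, and no such share was taken for ratios of other genes. Whether a ratio rises or falls depends on which gene is put first. TRA2A over TRA2B was 0.187, 0.207 and 0.199 in Ctrl and 0.358, 0.351 and 0.322 in NE, with exon GC of 40.8% and 39.6%. HNRNPDL over HNRNPD was 0.425, 0.439 and 0.485 in Ctrl and 0.896, 0.857 and 0.881 in NE, with GC of 43.3% and 39.6%. SRSF6 over SRSF4 was 1.26, 1.18 and 1.73 in Ctrl and 2.86, 2.42 and 2.2 in NE, with GC of 40.8% and 41.3%. In these 3 pairs the genes differ by less in GC than in the pairs with HNRNPF. No Ctrl library reached an NE library. In SRSF6 over SRSF4 and in HNRNPDL over HNRNPD, Ctrl 3 lay between the other Ctrl libraries and NE. The ratios rose 1.74-fold, 1.96-fold and 1.81-fold in geometric mean. Other pairs close in GC overlapped between the groups. They were HNRNPUL2 over HNRNPUL1 (51.6% and 53.3%), SRSF7 over SRSF3 (41.4% and 40%) and HNRNPH2 over HNRNPH1 (42.4% and 44.5%). CLK4 over CLK1 (37% and 39%) did not overlap. The part of GC in the ratios was not tested.

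HNRNPH1 over HNRNPF was 0.656, 0.626 and 0.587 in Ctrl and 1.27, 1.48 and 1.38 in NE, a 2.21-fold difference between genes of 44.5% and 51% GC. HNRNPH2 over HNRNPF differed 2.42-fold, whereas HNRNPH2 over HNRNPH1 overlapped (0.142 to 0.199 in Ctrl and 0.173 to 0.195 in NE). HNRNPLL over HNRNPL differed 1.69-fold, CLK4 over CLK1 1.43-fold and SRPK2 over SRPK1 1.16-fold. The overlapping pairs were CLK1 with CLK2, CLK2 with CLK3, HNRNPH2 with HNRNPH1, HNRNPUL2 with HNRNPUL1, SRSF1 with SRSF9, SRSF7 with SRSF3, and HNRNPA3 with HNRNPA1.

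**Figure D4:**
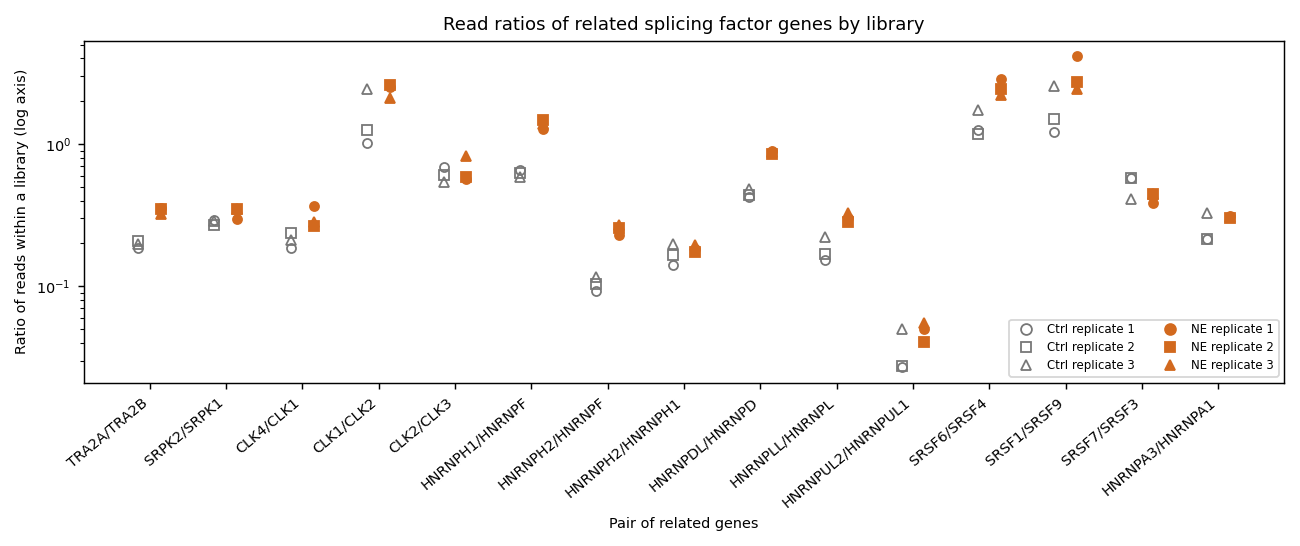
Ratio of the reads of 2 related genes within a library (vertical, log axis) for the 15 pairs (horizontal axis); open grey symbols are the 3 Ctrl libraries and filled orange symbols the 3 NE libraries, with the shape giving the replicate number. The HNRNPDL to HNRNPD ratio lies at 0.425 to 0.485 in Ctrl and 0.857 to 0.896 in NE, while the HNRNPH2 to HNRNPH1 ratios overlap.

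Levels between genes were compared per length, as FPKM recomputed from the reads and the merged exon length. The highest Ctrl levels were SF3B5 at 322 ± 47.6, HNRNPA1 at 195 ± 43.9, HNRNPUL1 at 153 ± 42 and HNRNPAB at 136 ± 34.6 (mean ± SD, n = 3). The lowest were SRSF12 at 0.175 ± 0.0457 and CLK4 at 0.874 ± 0.166. In NE, CLK4 was at 1.96 ± 0.224 and HNRNPAB at 66 ± 7.81, so the members past the fold criterion stand near opposite ends of the range of levels. FPKM and read shares divide by all reads on genes, and on that scale the log2 difference of the median gene is 0.13 higher than with the size factors.

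The rest of the splicing machinery was followed in lists of known genes, in which 31 of 109 tested genes were higher, 33 lower and 45 not called (median −0.068), near the 24.6% and 25.5% of all tested genes. After GC correction 8 were higher and 32 lower, against 13.0% and 19.0% of all genes, and 38 were higher and 45 lower without Ctrl 3. None of the lists was tested as a set, and counts in a short list say nothing particular about it. SR-related proteins, which carry serine-arginine stretches but are named apart from the SRSF family, had 10 of 16 higher and 1 lower (median 0.52), with BCLAF1 at 1.29, LUC7L3 and PPIG at 0.94 and the falling RNPS1 at −0.49. After GC correction 3 of the 16 were higher and 0 lower, and 10 were higher and 2 lower without Ctrl 3. Kinases and phosphatases of SR proteins outside the CLK and SRPK families, with SR import factors, had 5 of 11 higher and 1 lower (median 0.36), with 2 and 1 after GC correction (median 0.13) and 7 and 3 without Ctrl 3. PPP1CB rose by 1.1, CDK13 by 0.82 and PRPF4B by 0.74, whereas PPP1CA, another catalytic subunit of the same phosphatase, was at −1.1. The other splicing regulators had 8 of 25 higher and 6 lower, with MBNL2 at 1.74, MATR3 at 1.26, NOVA1 at 1.11, CIRBP at −0.5 and RBM10 at −0.49. The MATR3 entry used, ENSG00000015479, was low, with means of 26.8 in Ctrl and 65.1 in NE. Its GC-corrected difference of 0.62 was not called (adjusted p = 0.15). Only the first entry of a symbol was read, so any other MATR3 entry is not covered. After GC correction the balance turned, to 1 higher and 9 lower (median −0.15), and without Ctrl 3 it was 10 and 10.

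Among the proteins specific to the U1 or U2 particle and the Sm proteins, which form a ring in several snRNPs, 0 of 12 were higher and 5 lower (median −0.5; 0 and 8 after GC correction, 1 and 8 without Ctrl 3), with SNRPG at −1.38, SNRPB at −1.36 and SNRPD2 at −0.81. Of the factors that recognise the branch point and 3′ splice site, 0 of 7 were higher and 3 lower (0 and 2 after GC correction, 0 and 3 without Ctrl 3), with PUF60 at −1.13, U2AF2 at −0.73 and SF1 at −0.59. The tri-snRNP and catalytic factors had 4 of 19 higher (CDC5L at 0.84, CRNKL1 at 0.81, AQR at 0.75) and 9 lower (PRPF31 at −0.94, EFTUD2 at −0.76, XAB2 at −0.75), with 1 and 6 after GC correction and 4 and 10 without Ctrl 3. hnRNP proteins under other symbols had 1 of 9 higher (PTBP2 at 0.97) and 5 lower (RALY at −0.97, PCBP1 at −0.81, PTBP1 at −0.64), with 0 and 4 after GC correction and 2 and 6 without Ctrl 3. Among nonsense-mediated decay factors, 3 of 10 were higher (UPF2 at 0.99, UPF3B at 0.98, SMG1 at 0.71) and 3 lower (SMG9 at −0.95, SMG5 at −0.83, UPF1 at −0.62), with 1 and 2 after GC correction and 4 and 3 without Ctrl 3.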

How the data were processed

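The authors aligned the reads with HISAT2 2.0.5 to hg38 and counted them per gene with featureCounts 1.5.0-p3, per the labels and the submitters' processing notes; annotation, strand setting and treatment of multiply mapped reads are not given in the sources used here. The deposited signal is described as FPKM, but in every library 100% of the values were whole multiples of 1 read (tolerance 0.001), so it is a gene count divided by 1 size factor. There were 0 unmatched columns. limma 3.58.1 (lmFit, eBayes with trend; R 4.3.3) was fitted to log2(value + 1) for NE against Ctrl over 15013 genes with a mean of at least 10, with Benjamini-Hochberg adjustment at 0.05. Where a fold criterion is named, the absolute log2 difference is at least 1. On the recovered reads, edgeR 4.0.16, DESeq2 1.42.0 and voom were alternatives. GC content came from merged GENCODE v44 exons on hg38 (25813 of 26025 genes), and its trend was removed per library by a natural spline with 5 degrees of freedom. Tested on simulated data for this comparison, the test recovered 94.5% of 200 genes changed by 1 on the log2 scale among 14878 genes, with 8 false calls. In the data 24.6% of tested genes were called higher and 25.5% lower, the differences followed exon GC, and most called members differed by less than 1. The simulated rates therefore need not hold for the calls given here.

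Members and gene lists were chosen with earlier results of these data known. Values in every library are given for the 10 largest called rises and falls, all kinases, and called members whose direction turned under the GC correction or without 1 library; from the other lists, at most 3 called genes a direction. Other members are named where a comparison between relatives or a caveat needs them, after their values were seen. With 3 libraries per group an exact permutation test of 1 gene cannot go below p = 0.1, and none is reported.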

Additional observations from a re-analysis of the deposited data

How the results depend on the processing

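Against 12 members higher, 15 lower, 2 past the fold criterion and a median log2 difference of −0.065, quantile normalization gave 9 lower, 0 past the fold criterion and a median of 0.089, and library totals (added after seeing the data) a median of 0.072. GC correction gave 1 higher and a median of −0.33, as did the replicate block with GC correction, and GC with length correction gave 2 higher, 23 lower, 4 past the fold criterion and a median of −0.31. With Ctrl 3 left out and GC correction, 2 were higher, 29 lower and 4 past the fold criterion, with a median of −0.37. Over all genes this last fit called 2849 higher and 3559 lower, and GC with length correction 1817 and 2921. GC correction alone called 1945 and 2834 genes, the replicate block with GC 1414 and 2156, and the fit without correction 3693 and 3828. Leaving out each library gave 8 to 14 higher, 9 to 24 lower, 1 to 5 past the fold criterion and medians of −0.078 to −0.051; the 9 lower came without Ctrl 2 or NE 1, the 24 lower and the 5 past the fold criterion without Ctrl 3, and the 1 without Ctrl 1. Over all genes, leaving out each library gave 2715 to 4802 higher and 2961 to 4890 lower, with the largest counts without Ctrl 3. The cause was not tested. Single genes turned under GC correction, GC with length, the replicate block with GC, and Ctrl 3 left out with GC, in that order: SRSF11 at −0.042, −0.1, −0.042 and −0.052, SRSF10 at −0.12, −0.21, −0.12 and −0.1, CLK1 at −0.095, −0.056, −0.095 and −0.15, and the uncalled CLK2 at 0.23, 0.3, 0.23 and 0.011. The replicate block alone gave 10 higher and 13 lower. Libraries of the same number did not deviate together (correlations −0.163, 0.0799 and −0.151), so the numbers are not taken as pairs. edgeR and DESeq2 each called 12 higher and 15 lower, voom 11 and 15, and limma without trend 11 and 10. Both other pseudocounts, both other filters and TMM left the counts of higher and lower members within 1.5 times.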
